A study of Rattus norvegicus with 20 samples.

Results

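Zucker diabetic fatty (ZDF) rats that had received a treatment were compared with ZDF rats that had received none, whichever treatment it was. The treated set held 10 of the 20 blood arrays of the study, which are 5 of rats given rosiglitazone and 5 of rats given resveratrol, chosen by their titles. The untreated set held the 5 arrays titled as obese, so 15 of the 20 arrays entered the comparison. The other 5, from lean control rats, served as a reference level only. All animals were male, all samples are labelled as Zucker strain, and all rats were housed singly on a reverse light cycle with free food and water. The lean rats were fed a standard Purina chow, whereas the diet of the obese rats is given as stock, and the labels give 6 weeks for the diet. The doses, the length of treatment, the age of the rats and the genotype of the lean rats are not in the labels. No vehicle group is labelled, so the untreated rats are a group without treatment and not a vehicle control. Each array carried 100 ng of blood RNA of 1 rat.

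The ZDF rat carries a defective leptin receptor, eats in excess and develops obesity, insulin resistance and diabetes. Rosiglitazone is a thiazolidinedione that binds and activates PPARG, a nuclear receptor which acts with RXR on genes of fat storage and lipid handling and is most abundant in fat tissue. Resveratrol is a plant polyphenol that has been studied as an activator of the deacetylase SIRT1 and of the energy sensor AMPK. The compounds are not structural relatives, and a comparison of both with the same untreated rats asks which blood transcripts differ under either. Blood RNA comes from reticulocytes and red cells, platelets, neutrophils, monocytes and lymphocytes. Fewer cells of a type and less RNA per cell cannot be told apart in such samples.

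The values are log2 intensities of transcript clusters, each a set of probes along the transcripts of a gene, and 8499 genes were tested. The labelled tissue was checked against blood cell markers. The mean of 33 red cell genes lay between 7.43 and 8.35 on the 20 arrays. Of 26 genes enriched in liver, 17 were named on the array, and 5 of these 17 were bright enough to be tested. Correlations between any 2 of the 15 ZDF arrays ran from 0.90 to 0.97. Rosiglitazone rat 5 and resveratrol rat 1 stood apart, each with a median correlation of 0.93 with the other ZDF arrays. Klrk1 and several of the gene lists are given with and without both. Most other results are given with both arrays only, and some of them may depend on these arrays. Lean rat 1 had the highest value of all arrays for 7 of 8 skeletal muscle genes, and no lean array enters a difference below. That array does enter the estimate of the spread, which all 4 groups share. The labels give no batch.

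No gene passed the test of both treatments pooled against untreated ZDF, in which each treatment weighs equally. This count of 0 of 8499 genes (0%) came from limma with Benjamini-Hochberg adjustment over all genes at 0.05, and the lowest adjusted p was 0.0671. At an unadjusted p under 0.05 there were 1023 genes, which is 12.0% of those tested, with 436 higher (5.13%) and 587 lower (6.91%) in the treated rats. Of these 1023, 1017 had differences of the same sign under rosiglitazone and under resveratrol. Both differences are taken from the same 5 untreated arrays and are therefore not independent of each other. The genes were also chosen by the mean of both differences, which favours those with a shared sign. The same-sign share of all genes is not given here, so this count does not measure agreement between the treatments. At an adjusted p under 0.2 there were 41 genes, 25 higher and 16 lower. All 10 treated arrays lay above all 5 untreated arrays for 4 genes (0.0471%) and below them for 19 genes (0.224%).

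Taken singly, rosiglitazone differed from untreated ZDF in 14 genes (0.165%), 10 higher and 4 lower, and resveratrol in 0 (0%), with a lowest adjusted p of 0.143. At an unadjusted p under 0.05 the counts were 1032 and 873 genes. No gene passed in both single comparisons. Of the 14 genes that passed under rosiglitazone, 11 had a difference of the same sign under resveratrol, which the shared untreated arrays favour. That a gene passed under 1 treatment alone does not show that the treatments differ, and the test of that difference, rosiglitazone against resveratrol, passed for 4 genes (0.0471%). The median SE of a pooled difference was 0.16 on the log2 scale, and the median SD within a group was 0.26 for untreated, 0.31 for rosiglitazone and 0.30 for resveratrol rats.

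The genes with the smallest p in the pooled comparison were taken as the leading genes, 12 higher and 12 lower, all with the same sign under both treatments. None of the 24 passed, and their adjusted p values ran from 0.0671 to 0.196. The 12 higher genes had pooled differences from 0.55 to 0.96. Their SEs ran from 0.12 to 0.21. Under rosiglitazone alone 5 of the 12 passed, under resveratrol alone 0, and in 11 of the 12 the rosiglitazone difference was the larger. The difference between the treatments passed for 0 of them, and its lowest adjusted p was 0.0534, for Gng12.

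Among genes of the nucleus and of cell division, Mybl2, a MYB transcription factor of proliferating cells, was at 3.24, 2.68, 3.28, 3.004 and 4.05 in the 5 untreated rats and from 3.81 to 4.48 with a median of 4.25 in the 10 treated rats. Untreated rat 5 lay inside the treated range, and the other 4 untreated rats lay below every treated rat. The pooled difference was 0.95 ± 0.17 (SE) with an adjusted p of 0.0671, made of 1.02 under rosiglitazone and 0.88 under resveratrol. Without untreated rat 5, the rat inside the treated range, the adjusted p was 0.00127. Over 33 alternative fits the Mybl2 difference ran from 0.66 to 1.15 and its adjusted p from 0.00127 to 0.618. Ddb1, which binds damaged DNA and links substrates to a CUL4 ubiquitin ligase, was at 6.68, 6.07, 6.49, 6.27 and 6.78 in the untreated rats and from 6.82 to 7.37 with a median of 7.04 in the treated rats, with no overlap. Its differences of 0.62 under rosiglitazone and 0.61 under resveratrol were nearly equal, and the 95% interval of the gap between them ran from -0.32 to 0.34. The pooled adjusted p was 0.11. Bud23, an RNA methyltransferase of ribosome maturation, was at 4.52, 4.58, 4.38, 4.27 and 4.89 untreated and from 4.76 to 5.75 with a median of 5.24 treated, so that 9 of 10 treated rats lay above the highest untreated rat. It was the one higher gene whose resveratrol difference (0.90) exceeded that of rosiglitazone (0.67), and its lean rats had a mean of 5.58, above both treated means. Amn1, named after a yeast antagonist of mitotic exit, was at 4.87, 4.62, 5.02, 4.38 and 4.30 untreated, 5.94, 5.67, 6.32, 5.74 and 6.35 under rosiglitazone and 5.76, 5.01, 5.40, 4.53 and 5.22 under resveratrol. All 5 rosiglitazone rats lay above the untreated range, whereas 2 resveratrol rats lay inside it, and the pooled difference was 0.96 ± 0.21 (SE).

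Several of the higher genes encode enzymes and transporters. Urah, a hydrolase of uric acid breakdown, was at 7.18, 7.24, 7.25, 6.88 and 7.37 in the untreated rats, 7.91, 8.16, 8.01, 8.01 and 7.93 under rosiglitazone and 8.01, 7.58, 7.75, 7.45 and 7.55 under resveratrol. Every treated rat lay above every untreated rat, and the pooled difference was 0.65 ± 0.13 (SE) with an adjusted p of 0.0914. Urah rose under rosiglitazone (adjusted p = 0.0168), and the resveratrol difference of 0.48 had an adjusted p of 0.37. Ip6k1, an inositol hexakisphosphate kinase, was at 4.35, 4.79, 4.90, 4.70 and 4.52 untreated and from 4.99 to 5.33 with a median of 5.24 treated, again with no overlap, and its treated groups differed from untreated by 0.57 and 0.52. Cpox, coproporphyrinogen oxidase of heme synthesis, was at 4.93, 4.56, 5.36, 4.81 and 5.07 untreated and from 5.10 to 5.94 with a median of 5.64 treated, and 8 of the 10 treated rats lay above the untreated range. Slc16a1, the monocarboxylate transporter MCT1, which carries lactate and pyruvate, was at 5.81, 5.41, 5.06, 5.13 and 5.86 untreated and from 5.82 to 6.48 with a median of 6.20 treated, with a lean mean of 5.00. Treated rats therefore lay farther from the lean level than untreated rats did for this gene.

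The remaining higher genes act in signalling and at the cell surface. Gng12, a G protein gamma subunit, was at 6.01, 6.10, 5.76, 5.91 and 5.80 untreated, 7.21, 7.14, 6.54, 6.96 and 7.69 under rosiglitazone and 5.86, 6.24, 6.70, 5.90 and 6.29 under resveratrol. Its rosiglitazone difference of 1.19 passed (adjusted p = 0.00356), the resveratrol difference was 0.28, and the gap between the treatments was 0.91 (95% interval 0.52 to 1.30, adjusted p = 0.0534). Mast2, a microtubule-associated kinase, was at 7.28, 6.83, 6.99, 6.22 and 6.91 untreated, 7.78, 7.85, 7.76, 7.77 and 7.91 under rosiglitazone and 7.52, 7.30, 7.59, 6.85 and 7.02 under resveratrol, and the rosiglitazone rats lay close together and above all rats of the other groups. Sdc3, a heparan sulfate proteoglycan, differed by 0.75 ± 0.16 (SE), with 9 of 10 treated rats above the untreated range and a lean mean of 5.64. Pebp1, an inhibitor of the RAF kinase, differed by 0.69 ± 0.17 (SE), with 8 of 10 treated rats above that range. The lean mean lay on the treated side of the untreated mean for 8 of these 12 genes.

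**Figure D1:**
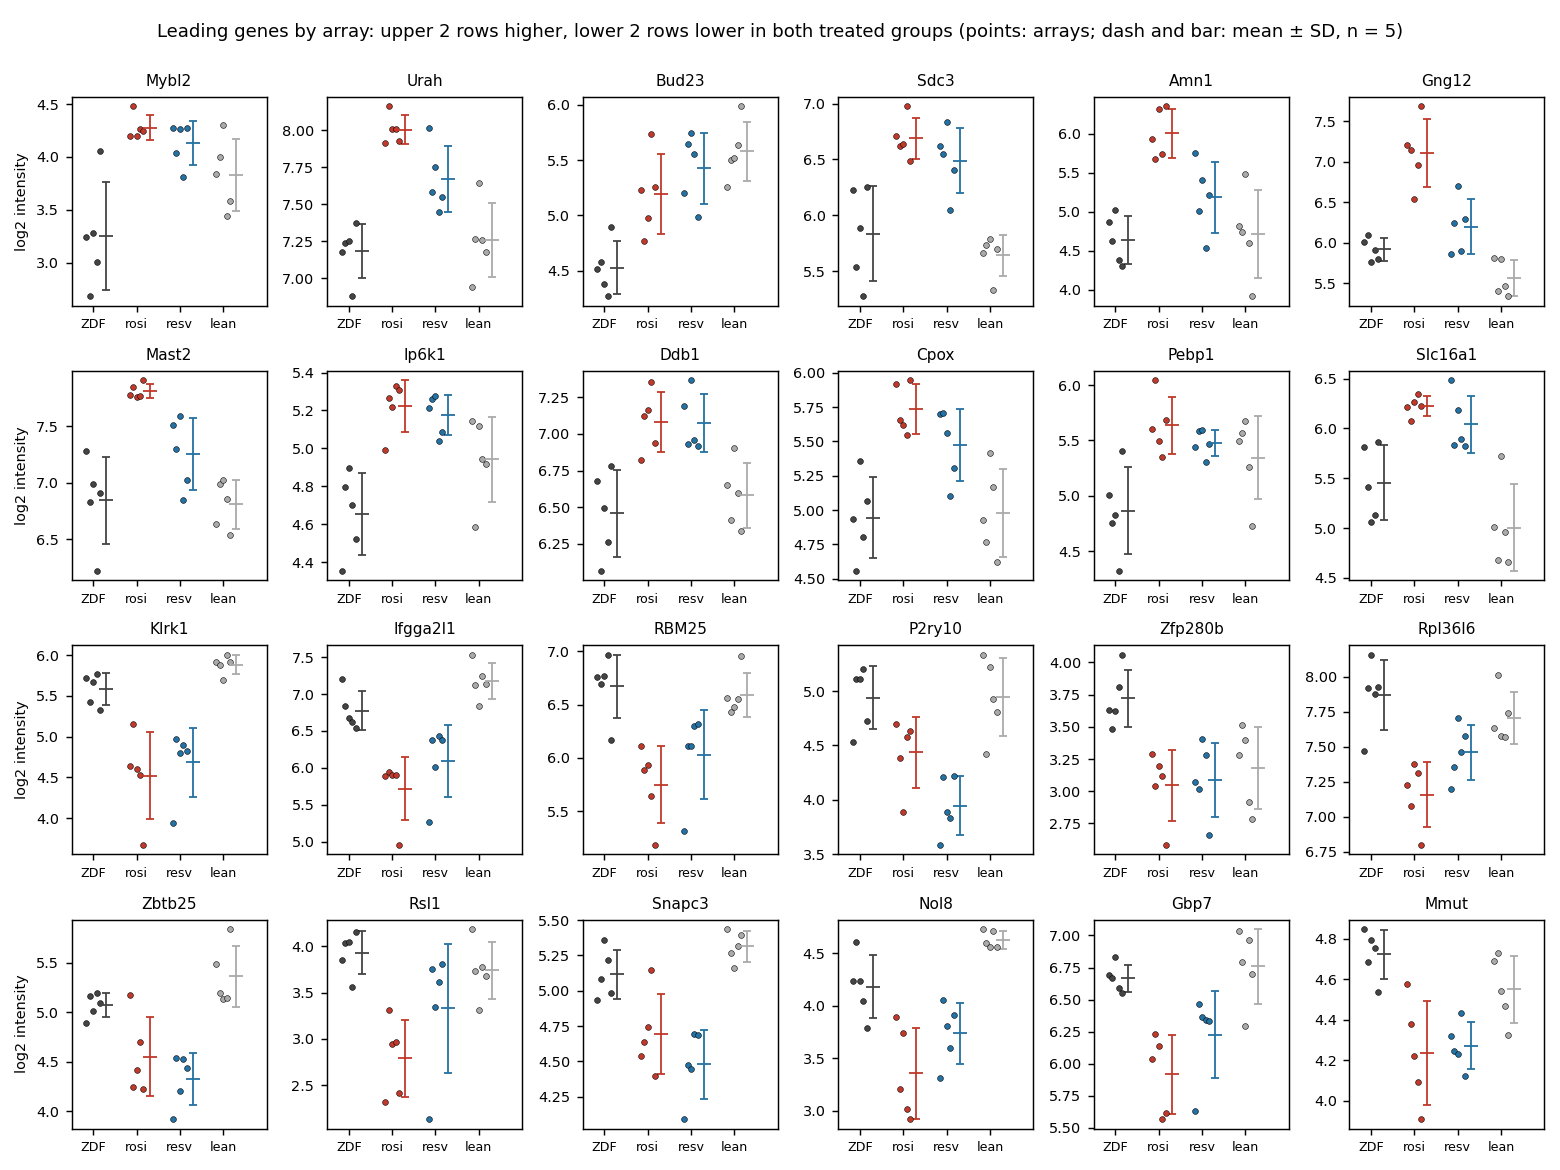
Log2 intensity (y axis of each panel, with its own range) of the 24 leading genes on each array, by group (untreated ZDF, rosiglitazone, resveratrol, lean), where points are arrays and the dash with its bar is the mean ± SD of 5. In Urah, Ip6k1, Ddb1, Klrk1, Ifgga2l1, Zfp280b and Gbp7 no treated array overlaps an untreated one, and in Ifgga2l1, RBM25 and Gbp7 resveratrol rat 1 sits below the other resveratrol rats.

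The 12 lower genes had pooled differences from -0.98 to -0.47, and 4 of them showed no overlap. Klrk1, which encodes the activating receptor NKG2D of natural killer and T cells, was at 5.72, 5.43, 5.68, 5.77 and 5.33 in the untreated rats, 4.64, 5.15, 4.60, 4.53 and 3.67 under rosiglitazone and 3.94, 4.97, 4.80, 4.89 and 4.83 under resveratrol. All treated rats lay below all untreated rats, and rosiglitazone rat 5 and resveratrol rat 1 were the lowest. The pooled difference was -0.98 ± 0.18 (SE) with an adjusted p of 0.0671, and Klrk1 fell under rosiglitazone (difference -1.07, adjusted p = 0.0299). With rosiglitazone rat 5 and resveratrol rat 1 left out together, the pooled adjusted p was 0.0182. Over 33 alternative fits the Klrk1 difference ran from -1.06 to -0.57 and its adjusted p from 0.0182 to 0.618. The 5 lean rats were at 5.92, 5.88, 5.70, 6.01 and 5.91, above most untreated rats. P2ry10, a G protein-coupled receptor of lymphocytes, was at 4.53, 5.11, 5.11, 5.20 and 4.73 untreated and from 3.58 to 4.69 with a median of 4.21 treated, and it was lower under resveratrol (-0.99) than under rosiglitazone (-0.50), with an adjusted p of 0.455 for that gap.

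A pair of interferon-inducible GTPases stood among the lower genes. Ifgga2l1, by its name a member of the interferon-gamma-inducible GTPases, was at 7.20, 6.83, 6.67, 6.62 and 6.54 untreated, 5.88, 5.94, 5.91, 5.91 and 4.96 under rosiglitazone and 5.27, 6.37, 6.01, 6.43 and 6.37 under resveratrol. Gbp7, a guanylate-binding protein, was at 6.69, 6.67, 6.83, 6.59 and 6.55 untreated and from 5.57 to 6.46 with a median of 6.18 treated. Neither overlapped between treated and untreated rats, and the pooled differences were -0.87 ± 0.19 (SE) and -0.59 ± 0.15 (SE). Near-identical copies of Ifgga2l1 and of the ribosomal protein gene Rpl36l6 may share probes, which makes the identity of their signal uncertain. The lean means were 7.18 and 6.76, above the untreated means.

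Of the other lower genes, RBM25, a splicing regulator, was at 6.76, 6.69, 6.76, 6.96 and 6.17 untreated and from 5.18 to 6.31 with a median of 6.02 treated, with 8 of 10 treated rats below the untreated range. Zfp280b, a zinc finger gene, was at 3.63, 3.49, 3.62, 3.81 and 4.06 untreated and from 2.58 to 3.40 with a median of 3.09 treated, with no overlap and with nearly equal differences of -0.68 and -0.64. The zinc finger genes Zbtb25 and Rsl1 differed by -0.63 ± 0.16 (SE) and -0.87 ± 0.22 (SE). Rpl36l6 differed by -0.56 ± 0.13 (SE), with 8 of 10 treated rats below the untreated range. Snapc3, a subunit of the complex that starts small nuclear RNA genes, differed by -0.53 ± 0.13 (SE), and the nucleolar gene Nol8 by -0.63 ± 0.16 (SE). Mmut, the mitochondrial methylmalonyl-CoA mutase, was at 4.85, 4.68, 4.79, 4.75 and 4.54 untreated and from 3.91 to 4.58 with a median of 4.24 treated, and 9 of 10 treated rats lay below the untreated range. The lean mean lay on the treated side for 5 of the 12 lower genes.

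**Figure D2:**
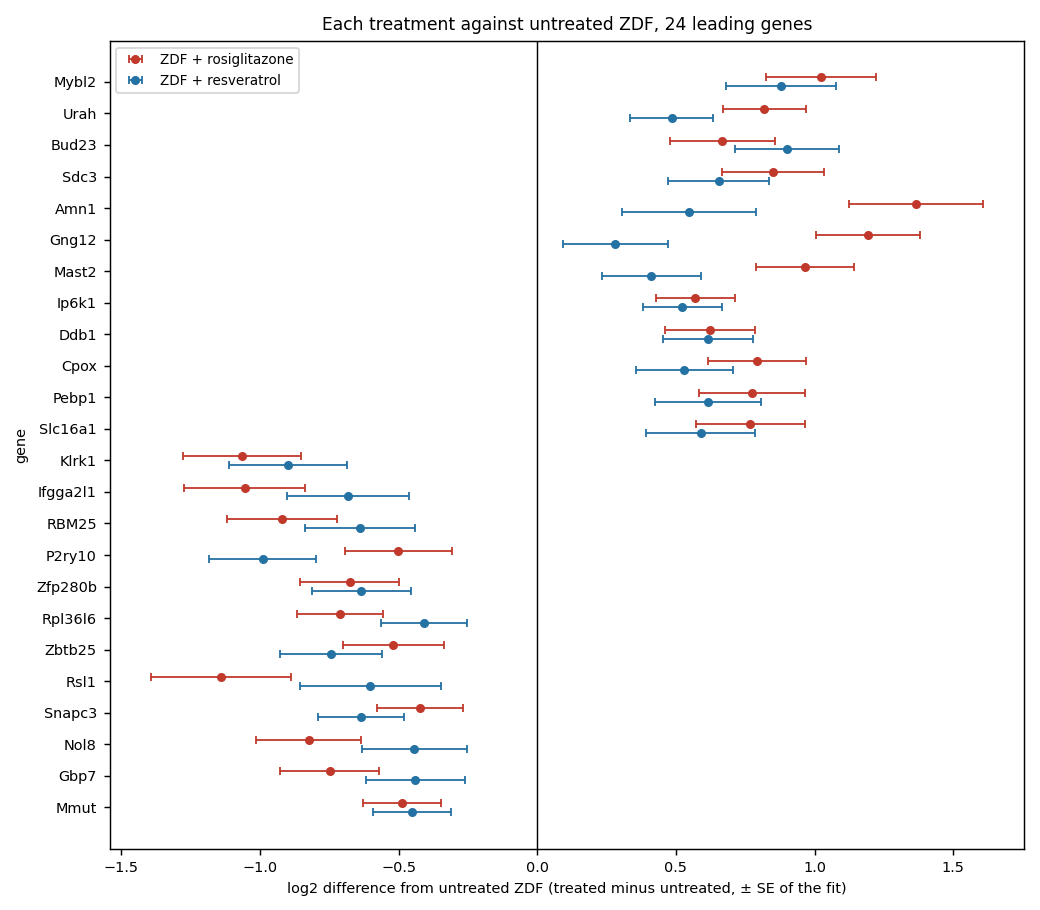
Log2 difference from untreated ZDF (x axis, treated minus untreated, ± SE of the fit) of the 24 leading genes (y axis) under rosiglitazone and under resveratrol, n = 5 arrays each. Both points lie on the same side of 0 by the choice of the genes, and the rosiglitazone point lies farther out in 11 of the 12 higher and 9 of the 12 lower genes.

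Genes without overlap but with larger p values were named after their values were seen. Above the untreated rats lay also Grk1, with a difference of 0.47 ± 0.14 (SE). Below them lay, among others, Msmo1, a methyl sterol oxidase of cholesterol synthesis, with -0.64 ± 0.18 (SE), Slfn5 of the Schlafen family with -0.50 ± 0.15 (SE), the exonuclease Xrn2 with -0.62 ± 0.21 (SE) and the T cell factor Nfatc3 with -0.41 ± 0.14 (SE). Their adjusted p values ran from 0.213 to 0.269. Msmo1 was at 4.10, 4.17, 4.21, 4.34 and 4.09 untreated, 3.65, 4.04, 3.74, 3.07 and 3.14 under rosiglitazone and 2.78, 3.54, 3.92, 4.07 and 3.46 under resveratrol.

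Gene lists are described by how many of their tested members had an unadjusted p under 0.05, read against the 5.13% higher and 6.91% lower of all genes, and by their median beside the median of all genes, -0.027. No member of any list passed the adjusted test, so these counts describe tendencies. Under alternatives the shares of all genes change too. They were 2.47% higher and 3.71% lower with the red cell list mean as a covariate, 4.13% and 1.87% with the T cell list mean as a covariate, and 5.17% and 4.74% without rosiglitazone rat 5 and resveratrol rat 1, and each count below is read against those of its own fit. Both covariates are means over the same arrays and differ between treated and untreated rats. Adjusting for them takes out part of the difference and can make the rest less precise. A count that drops with a covariate therefore assigns no cause, which was not tested. List members were picked for naming by their p, after their values were seen. In the red cell and reticulocyte list 9 of 33 genes were higher (27.3%) and 0 lower, 31 of 33 differences were positive, and the median was 0.23 (0.20 under rosiglitazone, 0.29 under resveratrol). The list mean was 7.94, 7.69, 7.81, 7.56 and 8.02 in the untreated rats, 8.02, 8.002, 8.09, 8.02 and 7.94 under rosiglitazone and 8.35, 8.17, 8.20, 7.93 and 7.96 under resveratrol. Treated rats filled the upper part of the range, and untreated rats 1 and 5 overlapped them. Of the 9, Cpox, Alad and Urod are enzymes of heme synthesis. Alad was at 4.23, 3.59, 3.87, 3.77 and 4.75 untreated, 4.86, 4.46, 5.53, 4.50 and 4.88 under rosiglitazone and 4.53, 4.76, 5.07, 4.54 and 4.16 under resveratrol, a pooled difference of 0.69 ± 0.23 (SE). Urod differed by 0.41 ± 0.15 (SE), the red cell skeleton gene Dmtn by 0.53 ± 0.19 (SE), the water channel Aqp1 by 0.37 ± 0.14 (SE) and the Rh glycoprotein Rhag by 0.31 ± 0.12 (SE). The ubiquitin enzymes Ube2l6 and Ube2o, of which the latter acts in maturing red cells, differed by 0.53 ± 0.25 (SE) and 0.23 ± 0.11 (SE). Without rosiglitazone rat 5 and resveratrol rat 1, 8 of 33 were higher (5.17% of all genes). With the T cell mean as a covariate 3 of 33 were higher (4.13% of all genes), and the median was 0.18.

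In the T cell list 12 of 29 genes were lower (41.4%) and 0 higher, 27 of 29 differences were negative, and the median was -0.37 (-0.51 under rosiglitazone, -0.19 under resveratrol). The list mean was 5.25, 5.26, 5.50, 5.21 and 5.11 untreated, 4.75, 5.09, 4.90, 4.82 and 4.33 under rosiglitazone, 4.50, 5.34, 5.18, 5.11 and 5.08 under resveratrol and 5.98, 5.67, 5.26, 5.80 and 5.71 in the lean rats. All rosiglitazone rats lay below all untreated rats in this mean, while among resveratrol rats 1 lay far below, 1 just below and 3 inside the untreated range. The lean rats were the highest group. The co-receptor gene Cd8a was at 6.24, 6.36, 6.54, 6.22 and 5.83 untreated, 5.30, 5.90, 5.57, 5.77 and 5.37 under rosiglitazone and 5.10, 6.34, 6.16, 5.94 and 5.72 under resveratrol, and the co-stimulatory receptor Cd28 at 5.54, 5.72, 6.00, 5.75 and 5.64, 4.55, 5.40, 5.12, 5.36 and 3.99 and 4.85, 5.62, 5.35, 5.32 and 5.55 in the same order. Pooled differences were -0.52 ± 0.17 (SE) for Cd8a, -0.62 ± 0.19 (SE) for Cd28, -0.52 ± 0.20 (SE) for Cd4, -0.90 ± 0.28 (SE) for the adaptor Sh2d1a, -0.77 ± 0.26 (SE) for Themis of thymocyte selection and -0.47 ± 0.20 (SE) for the interleukin 7 receptor. With rosiglitazone rat 5 and resveratrol rat 1 left out, 7 of 29 were lower (4.74% of all genes), and the median was -0.24. With the red cell mean as a covariate 2 of 29 were lower (3.71% of all genes), and the median was -0.32.

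The other lymphoid lists tended the same way. In the B cell list 4 of 17 genes were lower (23.5%), with a median of -0.27. The 4 were Ms4a1, which encodes CD20, with -0.64 ± 0.22 (SE), the B cell transcription factor Ebf1 with -0.62 ± 0.18 (SE), the inhibitory receptor Btla with -0.75 ± 0.21 (SE), and Jchain, the joining chain of secreted antibodies, with -1.002 ± 0.29 (SE). Jchain was at 4.86, 4.10, 4.15, 4.32 and 5.01 untreated, 3.13, 3.51, 4.65, 2.95 and 2.42 under rosiglitazone and 2.70, 4.25, 3.30, 3.59 and 4.38 under resveratrol, so rosiglitazone rat 3 and resveratrol rats 2 and 5 lay near the untreated level. In the natural killer and cytotoxic list 4 of 18 were lower and 1 higher, with a median of -0.19. Beside Klrk1 these were the lectin-like receptors Klrc1 (-0.83 ± 0.25 (SE)) and Klrb1a (-0.32 ± 0.15 (SE)) and the granule gene Nkg7 (-0.44 ± 0.21 (SE)), and Ncr3 was the higher gene (0.37 ± 0.17 (SE)). Without the 2 arrays that stand apart, the medians were -0.18 for B cells and -0.066 for natural killer cells, where 2 of 18 were lower. With the T cell mean as a covariate 1 of 17 B cell genes was lower with a median of -0.13, and 1 of 18 natural killer genes was lower with a median of 0.017, on the other side of 0 (1.87% of all genes lower). In the MHC class II list 4 of 21 were lower, namely RT1-Ba, RT1-Da, RT1-DOb and the co-stimulatory ligand Cd86, with differences from -0.56 to -0.38, and 1 of 21 was lower without those arrays. With the T cell mean as a covariate 1 of 21 was lower too, and the median was -0.033.

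Myeloid lists showed no shared shift. The neutrophil list had 1 of 26 genes higher, the decoy receptor Il1r2 (0.93 ± 0.33 (SE)), and 1 lower, Retnlg (-0.95 ± 0.42 (SE)), with a median of 0.12. Il1r2 was at 4.09, 4.56, 4.91, 4.07 and 3.48 untreated, 5.11, 4.27, 6.48, 5.03 and 6.49 under rosiglitazone and 5.07, 4.12, 4.77, 5.95 and 4.21 under resveratrol, and its groups overlapped. The monocyte list had 0 of 24 higher and 2 lower, and its medians lay on either side of 0 (0.071 under rosiglitazone, -0.35 under resveratrol). The 2 were Irf8, a transcription factor of monocyte and dendritic lineages (-0.68 and -0.19), and the chemokine receptor Cx3cr1 (-0.079 and -1.05), in the order rosiglitazone and resveratrol. The platelet list had 3 of 17 higher (17.6%), with medians of -0.18 under rosiglitazone and 0.18 under resveratrol. Of these, 2 had the same sign under both treatments, the adhesion receptor Selp (0.46 ± 0.18 (SE)) and the ATP-gated channel P2rx1 (0.40 ± 0.15 (SE)). The other, Treml1, ran from 6.58 to 6.76 untreated, 6.39 to 6.99 under rosiglitazone and 6.97 to 7.36 under resveratrol, so only its resveratrol rats lay above the untreated range as a group. Eosinophil, basophil and mast cell genes had 0 of 7 in either direction.

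**Figure D3:**
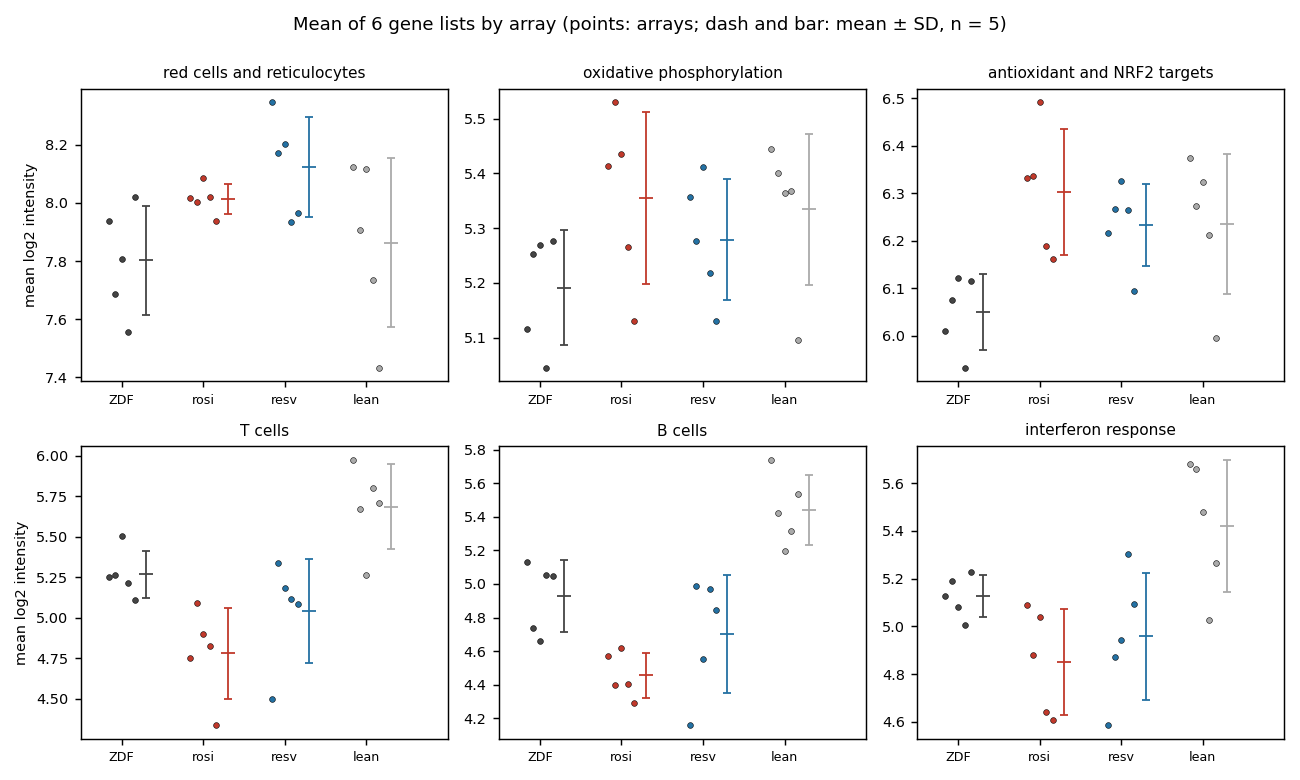
Mean log2 intensity (y axis of each panel, with its own range) of 6 gene lists on each array, by group, where points are arrays and the dash with its bar is the mean ± SD of 5. Rosiglitazone rat 5 and resveratrol rat 1 are the lowest of their groups for T cells, B cells and the interferon response, and the lean rats have the highest group mean in these 3 lists.

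Interferon-induced genes, which cells switch on when interferon is sensed, were lower in 7 of 21 cases (33.3%) and higher in 0. Of the 21 differences 16 were negative and 5 positive, and the list's median was -0.18. The positive members were Isg20 (0.28), Ifi35 (0.22), Cxcl9 (0.20), Psmb9 (0.080) and Irf7, which is given below. The list holds genes other than the leading GTPases Ifgga2l1 and Gbp7. Mx1, an antiviral GTPase, was at 4.40, 4.63, 4.55, 4.26 and 4.33 untreated, 4.01, 3.94, 3.65, 2.95 and 2.63 under rosiglitazone and 2.82, 3.87, 3.41, 4.54 and 3.81 under resveratrol, with a lean mean of 4.91. Its pooled difference was -0.87 ± 0.24 (SE) with an adjusted p of 0.213. Rosiglitazone rats 4 and 5 and resveratrol rat 1 were the lowest. Gbp5, another guanylate-binding protein, was at 4.53, 4.77, 4.78, 4.71 and 5.21 untreated, 4.01, 4.51, 4.45, 3.90 and 3.28 under rosiglitazone and 3.61, 4.57, 4.09, 4.95 and 4.32 under resveratrol, a difference of -0.63 ± 0.20 (SE). Resveratrol rats 2 and 4 lay inside the untreated range and every rosiglitazone rat below it. Ifih1, the RNA sensor MDA5, differed by -0.54 ± 0.22 (SE), Ifi27 by -0.52 ± 0.18 (SE), Ifit2 by -0.53 ± 0.19 (SE), Oasl2 by -0.58 ± 0.24 (SE) and the signal transducer Stat2 by -0.42 ± 0.19 (SE). Irf7 and Rsad2, which are induced in the same response, differed by 0.027 ± 0.19 (SE) and -0.0063 ± 0.11 (SE). Without rosiglitazone rat 5 and resveratrol rat 1, 5 of 21 were lower (4.74% of all genes) and the median was -0.11. These 2 rats were the lowest of their groups in the interferon list mean and in the T cell list mean. With the T cell mean as a covariate 1 of 21 was lower (1.87% of all genes) and the median was -0.16, and with the red cell mean as a covariate 6 of 21 were lower (3.71% of all genes).

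Promoters of 18 of the 21 tested members were found by symbol in RefSeq (assembly GRCr8), from 250 bases before to 50 bases after the start of each gene. They were searched on both strands for the interferon-stimulated response element, which was spelled as GAAA, any 2 bases and GAAA. It was found in 12 of the 18, and in 3.92% of 33469 promoters of the same length. Of the 6 lower members with a promoter, it was found in Gbp5, Ifi27, Ifih1 and Oasl2 and not in Mx1, which had the largest difference of the list, or Stat2. Only this window at an annotated start of each gene was searched, so an element farther away would be missed. It was also found in Irf7 and Rsad2, whose differences were near 0. A pair of promoters is shown 5′ to 3′ as an example of the letters behind that count, with matches in capitals. The match in Gbp5 lies on the opposite strand and starts at base -56 from the gene's start, and those in Ifi27 start at -169 and -84.
Gbp5 (GRCr8, chr2:233910749-233911048, + strand): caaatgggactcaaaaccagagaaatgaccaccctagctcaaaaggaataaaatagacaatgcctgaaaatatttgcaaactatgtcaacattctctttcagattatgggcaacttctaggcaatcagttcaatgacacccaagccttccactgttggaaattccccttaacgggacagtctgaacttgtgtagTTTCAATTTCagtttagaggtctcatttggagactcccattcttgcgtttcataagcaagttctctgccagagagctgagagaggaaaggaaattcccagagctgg
Ifi27 (GRCr8, chr6:128355062-128355361, + strand): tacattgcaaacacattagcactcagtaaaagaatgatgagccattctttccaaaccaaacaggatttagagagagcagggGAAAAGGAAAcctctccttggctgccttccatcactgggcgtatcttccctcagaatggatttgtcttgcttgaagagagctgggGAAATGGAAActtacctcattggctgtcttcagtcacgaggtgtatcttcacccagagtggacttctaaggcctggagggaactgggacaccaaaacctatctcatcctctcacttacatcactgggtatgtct

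Genes of mitochondrial respiration tended higher. In the oxidative phosphorylation list 12 of 57 were higher (21.1%) and 1 lower (1.75%), with a median of 0.13 (0.13 under rosiglitazone, 0.11 under resveratrol). Of the 57 differences 40 were positive and 17 negative. Ndufa11, a subunit of complex I, was at 4.89, 5.19, 5.05, 4.96 and 5.22 untreated, 6.05, 5.92, 5.77, 5.48 and 5.73 under rosiglitazone and 5.95, 5.52, 5.56, 5.17 and 5.28 under resveratrol, a difference of 0.58 ± 0.15 (SE) with an adjusted p of 0.196. Resveratrol rat 4 alone lay inside the untreated range. Uqcrc1, a core subunit of complex III, differed by 0.63 ± 0.17 (SE), and Cox5b and Cox6c of complex IV differed by 0.61 ± 0.20 (SE) and 0.52 ± 0.18 (SE). Atp5mf and Atp5po of the ATP synthase differed by 0.43 ± 0.15 (SE) and 0.43 ± 0.19 (SE). The lower member was Uqcrc2, the other core subunit of complex III, at 5.63, 5.58, 5.71, 5.65 and 5.47 untreated, 5.33, 5.52, 5.08, 5.08 and 4.72 under rosiglitazone and 4.38, 5.29, 5.10, 5.40 and 5.53 under resveratrol, a difference of -0.47 ± 0.16 (SE). With the red cell mean as a covariate, 3 of 57 were higher (2.47% of all genes) and the median was 0.012. With the T cell mean as a covariate 6 were higher (4.13% of all genes) and the median was 0.17, and without the 2 arrays that stand apart 12 were higher and the median was 0.14. The mitochondrial ribosomal proteins, with 1 of 58 higher and 2 lower and a median of -0.042, did not show the tendency.

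The antioxidant list, which holds targets of the transcription factor NRF2, had 8 of 31 higher (25.8%) and 0 lower, with a median of 0.15. Its mean was 6.01, 6.07, 6.12, 5.93 and 6.11 untreated, 6.33, 6.34, 6.49, 6.19 and 6.16 under rosiglitazone and 6.22, 6.27, 6.33, 6.26 and 6.09 under resveratrol, so that 9 of 10 treated rats lay above all untreated rats. The lean rats were at 6.37, 6.27, 6.32, 6.21 and 6.00. Gstm5, a glutathione S-transferase, was at 4.12, 4.24, 3.72, 2.67 and 4.37 untreated, 4.71, 5.46, 5.10, 5.32 and 5.08 under rosiglitazone and 4.84, 4.52, 4.98, 3.65 and 3.84 under resveratrol. It rose under rosiglitazone by 1.31, with 5 of 5 rats above the untreated range, and differed by 0.54 under resveratrol, where 3 of 5 did. Gsta1 and Gsta4, of the same enzyme class, differed by 0.65 ± 0.25 (SE) and 0.70 ± 0.27 (SE). Nqo1, a quinone reductase, differed by 0.56 ± 0.17 (SE) and was at 2.77, 2.33, 3.19, 3.38 and 2.98 untreated, 3.81, 3.60, 3.81, 3.35 and 3.79 under rosiglitazone and 2.76, 3.37, 3.62, 3.52 and 3.24 under resveratrol. Txnrd1, thioredoxin reductase, differed by 0.80 under rosiglitazone and 0.074 under resveratrol. The glutathione synthesis gene Gclm differed by 0.23 ± 0.11 (SE), the cystine transporter chain Slc3a2 by 0.49 ± 0.18 (SE) and the mitochondrial peroxiredoxin Prdx3 by 0.32 ± 0.15 (SE). Without the 2 arrays that stand apart 6 of 31 were higher and the median was 0.22, and with the red cell mean as a covariate 2 were higher (2.47% of all genes) and the median was 0.077. The T cell mean as a covariate left 5 higher (4.13% of all genes), with a median of 0.20.

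The antioxidant response element, which was spelled as TGAC, any 3 bases and GC, was searched on both strands in the promoters of 28 of these 31 genes that matched RefSeq. It was found in 8 of the 28, and in 12.1% of 33469 promoters. Of the 8 higher members, it was found in Gstm5, Gsta1 and Gclm and not in Nqo1, Slc3a2, Gsta4, Txnrd1 or Prdx3. It was also found in Sod2 and Gstp1, whose differences were near 0. The Gstm5 promoter is shown because that gene had the largest difference of the list and holds 2 matches, in capitals, which start at bases -113 and -53.
Gstm5 (GRCr8, chr2:198219519-198219818, + strand): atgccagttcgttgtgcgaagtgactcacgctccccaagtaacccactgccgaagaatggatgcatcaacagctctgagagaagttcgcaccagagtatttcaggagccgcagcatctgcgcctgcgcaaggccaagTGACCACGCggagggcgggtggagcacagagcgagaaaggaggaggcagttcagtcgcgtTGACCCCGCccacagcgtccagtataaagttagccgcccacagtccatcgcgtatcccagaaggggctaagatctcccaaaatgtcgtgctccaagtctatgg

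**Figure D4:**
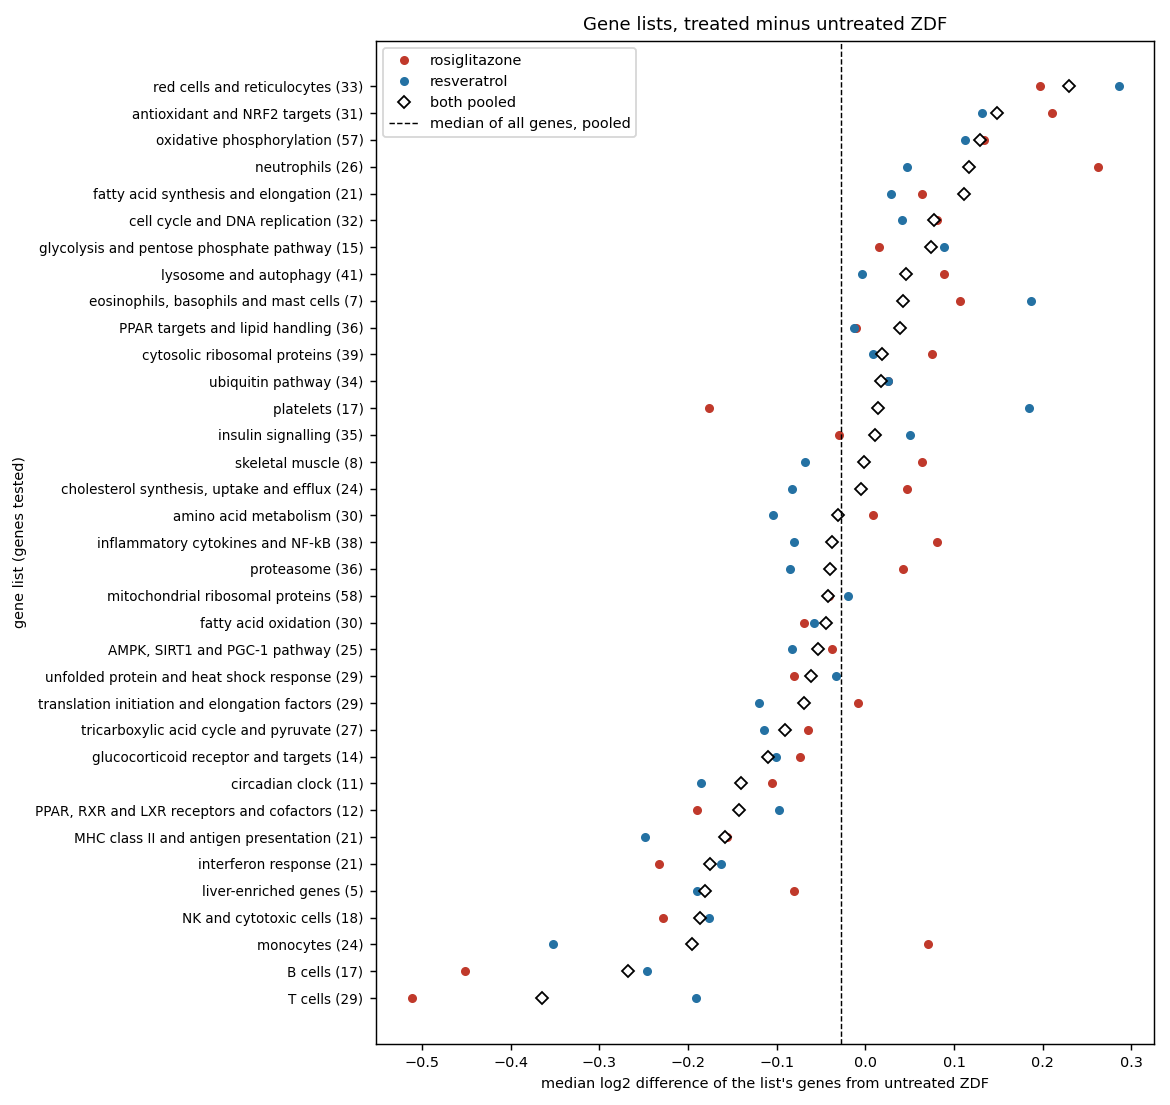
Median log2 difference from untreated ZDF (x axis) of the tested genes of 35 lists (y axis, with the number of genes tested), for rosiglitazone, resveratrol and both pooled. The dashed line is the median of all genes, -0.027, and the pooled medians run from -0.37 for T cells to 0.23 for red cells.

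In the cell cycle list 6 of 32 were higher (18.8%) and 0 lower, with a median of 0.077. The list was split in sign, with 19 differences positive and 13 negative. Rrm2, the small subunit of ribonucleotide reductase, was at 3.54, 3.62, 4.15, 3.65 and 3.89 untreated, 5.53, 5.02, 5.09, 4.28 and 5.26 under rosiglitazone and 2.98, 4.33, 4.47, 4.33 and 4.82 under resveratrol. It rose under rosiglitazone (1.27), while under resveratrol the difference was 0.42 with rat 1 below every untreated rat. Foxm1, a transcription factor of the G2 and M phases, differed by 0.47 ± 0.13 (SE), and Cdc20, which activates the anaphase-promoting complex, by 0.70 ± 0.28 (SE). Cenpf, Ccnb2 and Aurka, of mitosis, differed by 0.44 ± 0.15 (SE), 0.38 ± 0.15 (SE) and 0.46 ± 0.22 (SE). Mybl2, named above, acts with Foxm1 on genes of this phase. With the red cell mean as a covariate 2 of 32 were higher (2.47% of all genes) and the median was -0.057. With the T cell mean as a covariate 4 were higher (4.13% of all genes) and 1 lower, and the median was 0.20.

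Of the 33 genes fixed by name for PPAR and SIRT1 biology, 22 were tested, 6 had an unadjusted p under 0.05 and 0 passed, with adjusted p values from 0.238 to 0.992. Ppara, Ppargc1a, Fabp4, Angptl4, Pdk4 and Abca1 lay below the intensity filter, and the rest, Pparg and Sirt1 among them, were not analysed here, which says nothing of their brightness. The forkhead factors lay on opposite sides. Foxo1 was at 5.64, 5.95, 5.95, 6.36 and 5.89 untreated and from 5.15 to 5.77 with a median of 5.55 treated, a difference of -0.47 ± 0.15 (SE), while Foxo3 was at 7.85, 7.36, 7.49, 7.09 and 7.72 untreated and from 7.75 to 8.15 with a median of 7.99 treated, a difference of 0.46 ± 0.15 (SE). Each differed by about the same amount under both treatments. Txnip, a glucose-induced inhibitor of thioredoxin, was at 7.40, 7.95, 8.18, 7.85 and 7.498 untreated and from 6.74 to 7.71 with a median of 7.49 treated (-0.42 ± 0.17 (SE)). Cpt1a, which loads fatty acids onto carnitine for import into mitochondria, and the carnitine carrier Slc25a20 differed by -0.56 and -0.67 under rosiglitazone but by -0.12 and -0.07 under resveratrol. The gaps between treatments had adjusted p values of 0.467 and 0.365. Of the lipid genes that PPARG controls in fat, none of those tested passed here. Cd36, the fatty acid translocase, was at 9.95, 9.57, 9.80, 9.77 and 9.76 untreated and from 9.43 to 9.86 with a median of 9.68 treated (-0.074 ± 0.11 (SE)). Plin2 differed by -0.10 ± 0.19 (SE), Ucp2 by -0.14 ± 0.10 (SE) and Lpl by 0.39 ± 0.26 (SE), and the cholesterol exporter Abcg1 by -0.27 ± 0.17 (SE). Under rosiglitazone alone the differences were -0.017 for Cd36, -0.0035 for Plin2, -0.24 for Ucp2, 0.58 for Lpl and -0.15 for Abcg1. The adiponectin receptors Adipor1 and Adipor2 differed by 0.058 ± 0.10 (SE) and -0.18 ± 0.13 (SE), and Prkaa1, a catalytic subunit of AMPK, by -0.12 ± 0.11 (SE). Hmox1, heme oxygenase 1, passed under neither treatment, with differences of 0.53 under rosiglitazone and -0.34 under resveratrol, and the gap of 0.87 (95% interval 0.50 to 1.24) had an adjusted p of 0.0534.

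**Figure D5:**
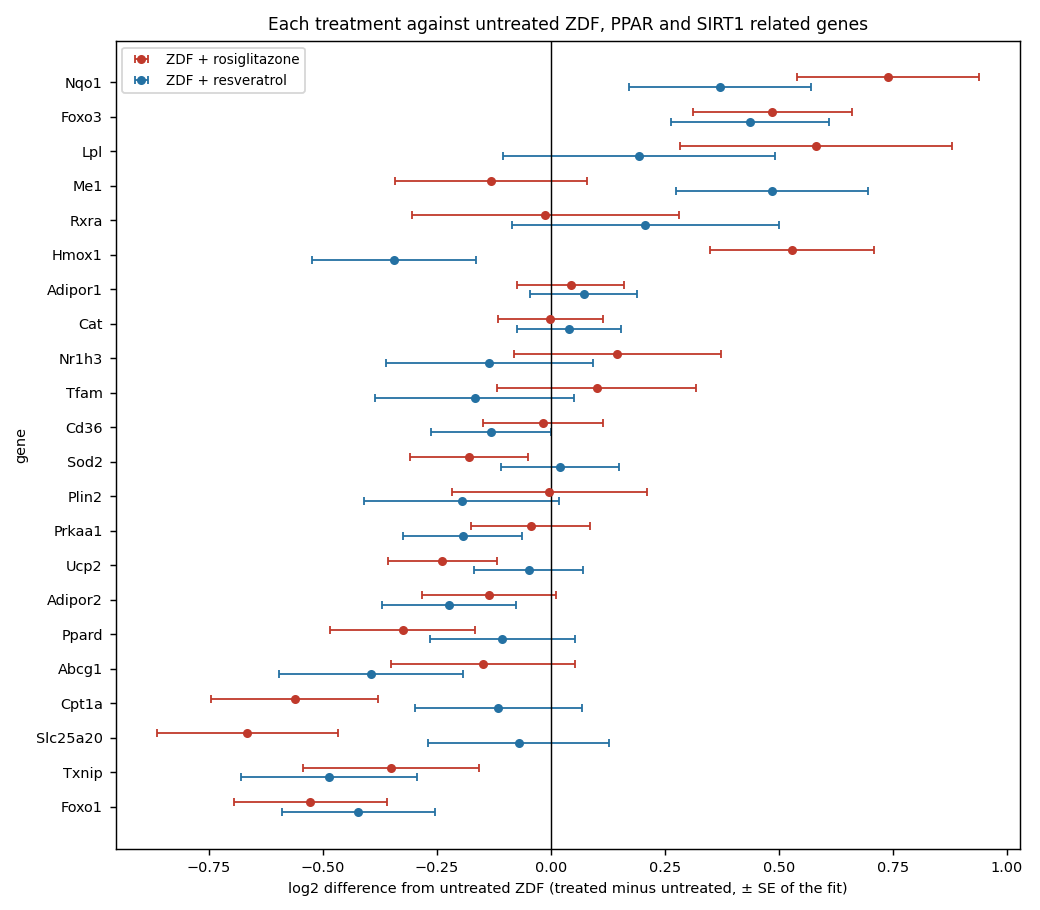
Log2 difference from untreated ZDF (x axis, treated minus untreated, ± SE of the fit) of 22 genes of PPAR and SIRT1 biology (y axis, ordered by the pooled difference) under rosiglitazone and under resveratrol, n = 5 arrays each. Nqo1 and Foxo3 lie highest and Foxo1 lowest in the pooled order, and Hmox1 lies on opposite sides of 0.

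The wider pathway lists held members in both directions or few in either. The PPAR target and lipid handling list had 2 of 36 higher and 4 lower with a median of 0.039, and the PPAR, RXR and LXR receptor list 0 of 12 higher and 1 lower, the coactivator Ncoa3 (-0.35 ± 0.16 (SE)). The AMPK, SIRT1 and PGC-1 list had 2 of 25 higher (8%) and 5 lower (20%), with a median of -0.054. The lower members besides Foxo1 were Sirt7 (-0.48 ± 0.16 (SE)), the mitochondrial transcription factor Tfb2m (-0.56 ± 0.20 (SE)), Gabpa (-0.45 ± 0.19 (SE)) and Pde3b (-0.47 ± 0.22 (SE)). Fatty acid oxidation split, with 3 of 30 higher (10%) and 5 lower (16.7%). Its subunits Hadha and Hadhb of the trifunctional protein differed by 0.36 ± 0.15 (SE) and 0.62 ± 0.19 (SE), the peroxisomal thiolase Acaa1a by 0.54 ± 0.15 (SE), and Crot, Acadm and Echs1 by -0.55 ± 0.19 (SE), -0.35 ± 0.16 (SE) and -0.37 ± 0.17 (SE). Fatty acid synthesis had 3 of 21 higher (14.3%) and 1 lower, among them the triglyceride enzyme Dgat2 (0.77 ± 0.25 (SE)) and the elongase Elovl6 (-0.50 ± 0.18 (SE)). In insulin signalling, with 3 of 35 higher and 2 lower, the glucose transporter Slc2a1 differed by 0.46 ± 0.16 (SE) and the mTOR inhibitor Tsc2 by 0.44 ± 0.14 (SE). Amino acid metabolism had 4 of 30 higher (13.3%) and 3 lower (10%). There, Bckdk, which inhibits branched-chain amino acid breakdown, rose under rosiglitazone (1.03) and differed by 0.28 under resveratrol.

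The glucocorticoid receptor and target list had 2 of 14 genes higher, Il1r2 and Zbtb16, and 2 lower, Nr3c1 and Txnip. Nr3c1, the receptor itself, differed by -0.53 ± 0.15 (SE), with -0.53 under rosiglitazone and -0.53 under resveratrol, and was at 5.84, 5.98, 6.16, 6.25 and 5.89 untreated, 5.85, 5.87, 5.58, 5.20 and 4.98 under rosiglitazone and 4.98, 5.62, 5.60, 5.68 and 5.62 under resveratrol. Rosiglitazone rats 1 and 2 lay inside the untreated range, and every resveratrol rat lay below it. Clock was the 1 of 11 circadian genes that was lower (-0.46 ± 0.15 (SE)). The lysosome and autophagy list had 4 of 41 higher and 1 lower, with the autophagy genes Map1lc3a (0.62 ± 0.18 (SE)), Wipi2 (0.50 ± 0.16 (SE)) and Atg9a (0.42 ± 0.13 (SE)) among the higher. Translation factors had 2 of 29 higher and 5 lower, with Eif4e, the cap-binding factor, at -0.41 ± 0.15 (SE). The proteasome list had 4 of 36 higher and 3 lower, cytosolic ribosomal proteins 0 of 39 higher and 1 lower, and inflammatory cytokine and NF-kB genes 2 of 38 higher and 1 lower. Their medians were -0.040, 0.018 and -0.038, near that of all genes.

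The 14 genes that passed under rosiglitazone include 7 of the leading genes, namely Mybl2, Urah, Amn1, Gng12, Mast2, Klrk1 and Ifgga2l1. Gstm5, Bckdk, Rrm2 and Chst7 also rose under rosiglitazone with a positive resveratrol difference, of 0.54, 0.28, 0.42 and 0.081. The remaining 3, Snrpgl2, H2ac12 and RGD1565183, had differences of opposite sign under the treatments and also passed in the test of rosiglitazone against resveratrol. Snrpgl2, an annotated copy of the spliceosomal protein SNRPG whose probes may be shared with other copies, was at 3.11, 4.09, 3.56, 3.83 and 3.47 untreated, 5.75, 5.72, 6.00, 5.95 and 4.84 under rosiglitazone, 4.32, 3.32, 3.03, 3.82 and 2.30 under resveratrol and 4.98, 5.60, 5.57, 5.52 and 5.21 in lean rats. H2ac12, a histone H2A gene, was at 6.40, 6.33, 6.53, 6.19 and 6.65 untreated, 5.01, 5.40, 5.27, 5.53 and 5.45 under rosiglitazone, 6.68, 6.80, 7.14, 6.31 and 6.25 under resveratrol and 5.16, 5.53, 5.31, 5.25 and 4.94 in lean rats. RGD1565183, of no stated function, was at 4.26, 3.39, 3.67, 4.35 and 4.05, 2.08, 2.70, 1.66, 2.64 and 2.55, 5.82, 3.87, 4.89, 3.94 and 3.73 and 1.498, 2.46, 1.88, 1.42 and 1.88 in that order. Its rosiglitazone and lean means of 2.33 and 1.83 lay under the intensity filter of 2.64. It was tested because the untreated and resveratrol groups were brighter. For each of these 3 genes every rosiglitazone rat lay outside the untreated range, whereas resveratrol rats lay both inside and outside it. The fourth gene that differed between the treatments was Prok2, a secreted prokineticin, at 5.24, 6.37, 6.13, 6.31 and 5.27 untreated, 6.54, 5.67, 7.07, 6.62 and 6.42 under rosiglitazone and 4.51, 5.56, 4.86, 4.92 and 4.87 under resveratrol, so every rosiglitazone rat lay above every resveratrol rat.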

How the data were processed

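The expression of blood transcripts was profiled in 20 rats, each on an Affymetrix Rat Gene 2.1 ST array of its own. The authors normalized the arrays by RMA (background correction, quantile normalization and a probe summary for each transcript cluster) and deposited the resulting log2 intensities for 36685 clusters. Its version was not given in the sources used. After RMA the arrays have similar distributions, so a difference is relative to the bulk of transcripts. The number of arrays, 5 per group, limits the precision.

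Clusters with 1 gene symbol in the platform annotation (14824) were kept, while 829 with several and 21032 unnamed here were left out. Symbols were updated by Entrez identifier through the RefSeq table of GRCr8, in which 14670 matched. Clusters whose mean lay under the median of all cluster means (2.64) were removed, and of several clusters of a gene the brightest was taken, leaving 8499 genes. Groups came from sample titles. A limma 3.58.1 model (lmFit and eBayes, in R 4.3.3) with 4 group means was fitted on all 20 arrays. The pooled contrast was the mean of both treated groups minus untreated ZDF, with Benjamini-Hochberg adjustment over all genes at 0.05. The paper describes no analysis of the treated rats, so this design was chosen here.

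Since fewer than 5 genes passed, the rule named the 12 rises and 12 falls with the smallest p and the same sign under both treatments, without locus numbers and predicted names, beside 33 genes fixed by name. The comparison, these genes and the 35 gene lists were chosen with earlier results of these data known. No test was run on a list.

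Alternatives were no filter, the 8801 brightest genes, quantile normalization, centring, the 15 ZDF arrays, the treated arrays as a single group, averaging the clusters of a gene, array weights, a trended robust prior, a replicate block, the red cell list mean as covariate, and the omission of every array in turn. Omitting rosiglitazone rat 5 and resveratrol rat 1 together, the T cell list mean as covariate and the list counts under alternatives were chosen after seeing the data.

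The pooled contrast was also tested on simulated data for 8499 genes with their observed spread. A change of 0.5, 1 or 1.5 on the log2 scale was given to 67, 67 and 66 genes. It was called in 26.9%, 89.6% and 97% of them, as were 8 of 8299 unchanged genes. The noise was drawn independently for each gene and array, without shifts that many genes of a real array share. These shares therefore do not tell how often the test finds a change, or errs, on the real arrays. Figures were drawn with matplotlib 3.10.9 in Python 3.11.15.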

Additional observations from a re-analysis of the deposited data

Results flagged for a closer look

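Single rats stood far from the other 4 of their group in 6 of 72 groups examined for the 24 leading genes, and in 3 of 105 groups examined for the 35 list means, where chance alone flags about 1 group in 20. Resveratrol rat 1 was low for Klrk1 (3.94 against 4.80 to 4.97), RBM25 (5.31 against 6.11 to 6.31), Rsl1 (2.13 against 3.34 to 3.81) and Gbp7 (5.63 against 6.34 to 6.47). It was also low for the mean of the monocyte list (4.74 against 5.44 to 5.64) and of the MHC class II list (4.54 against 5.14 to 5.36). Rosiglitazone rat 5 was low for Ifgga2l1 (4.96 against 5.88 to 5.94) and for the mean of the natural killer and cytotoxic list (4.17 against 4.71 to 4.76). Rosiglitazone rat 2 was high for Mybl2 (4.48 against 4.20 to 4.27). Resveratrol rat 1 and rosiglitazone rat 5 are the arrays that correlate least with the other ZDF arrays, and their part in these values was not tested.

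The treatments differed from each other in 4 genes by limma. Rosiglitazone minus resveratrol was 2.30 for Snrpgl2, 1.52 for Prok2, -1.30 for H2ac12 and -2.12 for RGD1565183.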

How the results depend on the processing

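With a trended robust prior 12 genes passed the pooled test, all with the same sign under both treatments (8 higher, namely Amn1, Bud23, Ddb1, Gng12, Mast2, Mybl2, Sdc3 and Urah, and 4 lower, namely Ifgga2l1, Klrk1, RBM25 and Rpl36l6). Leaving out single arrays gave 0 to 1, with Klrk1 passing without rosiglitazone rat 2 and Mybl2 without untreated rat 5, and leaving out rosiglitazone 5 and resveratrol 1 together gave 1, Klrk1. In the other alternatives the pooled count was 0. The unadjusted count of 1023 was 525 with the red cell covariate, 510 with the T cell covariate, 879 on the 15 ZDF arrays and 705 without untreated rat 4.

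The count of 14 for rosiglitazone was 9 on the 15 ZDF arrays, 25 with the trended robust prior and 3 with the red cell covariate. It ran from 3 (without untreated rat 4) to 26 (without resveratrol rat 1) when single arrays were left out, and was 7 without rosiglitazone rat 1, 9 without rosiglitazone rat 5, 9 without untreated rat 1 and 6 without untreated rat 2. That for resveratrol ran from 0 to 1 (without untreated rat 5). The 4 genes that differed between treatments became 7 with quantile normalization, 13 with the trended robust prior and 10 with array weights, and 3 to 11 with single arrays left out, with 11 without rosiglitazone rat 4 or resveratrol rat 1, 7 without rosiglitazone rat 3 or resveratrol rat 2, and 8 without resveratrol rat 5. The cause of these changes was not tested.

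Deviations of same-numbered rats from their group means correlated from -0.15 to 0.21 over 15 pairs, with a median of 0.038 and 4 over 0.1. Low correlations cannot exclude that the numbers pair samples, and the titles give the numbers as biological replicates only. With a replicate block the pooled test called 0 genes, with a lowest adjusted p of 0.0681.

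Of 1518 values of single genes under alternatives, 1483 kept direction and side, 15 newly passed and 20 changed sign, none of these in the 24 leading genes. Rxra became -0.019 with the red cell covariate, Nr1h3 -0.0094 with centring, and Abcg1 0.044 and Sod2 0.033 with the T cell covariate. Tfam became 0.11 with array weights, 0.038 with the red cell covariate, 0.18 without both outlying arrays and 0.33 with the T cell covariate. With single arrays left out, Plin2 ran from -0.214 to 0.000269, Rxra from -0.00582 to 0.242, Nr1h3 from -0.0644 to 0.132 and Tfam from -0.0997 to 0.0896. All 6 were near 0 in the main comparison except Abcg1 (-0.27).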
